A study of Mus musculus with 3 samples.

Results

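Genes that make, bind, cross-link and break down hyaluronan, together with versican and 2 proteases that cleave it, were followed in the distal colon of mice with dextran sulfate sodium (DSS) colitis. Of 10 listed genes, 9 had a probe set that carries their symbol alone, out of 19938 genes measured in this way. The 9 were Cemip, Hyal2, Has1, Has2, Cd44, Tnfaip6, Vcan, Adamts1 and Adamts4, and the tenth, Hyal1, shares each of its 2 probe sets with its neighbour Naa80. The list was built around Cemip and Adamts4, which were chosen by their log2 signals on these same 3 arrays, high in WT colitis and low on the other arrays. All values below are therefore a description of the arrays and not a test.

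The 3 arrays, of the type GeneChip Mouse Gene 1.0 ST, stand for 1 group each of adult male BALB/c mice on day 7. The IL-4Rα-/- colitis array held RNA pooled from 6 mice that lack the interleukin-4 receptor α subunit in all cells and drank 3% DSS, a polymer that injures the colonic epithelium, for 7 days. The WT colitis array held RNA pooled from 3 wild-type littermates given the same 3% DSS, and the WT normal array held RNA pooled from 4 wild-type mice that drank water. No array of untreated IL-4Rα-/- colon was analysed here, so a difference that the genotype makes before DSS cannot be told apart from a difference in the response to DSS. Each pool was hybridised once, so no difference has an error or a p-value. The disease activity index of the pooled mice ran from 0 to 3 in IL-4Rα-/- colitis, from 3 to 4 in WT colitis and was 0 in WT normal. Body weight, in percent, ran from 95.1 to 100.8 in IL-4Rα-/- colitis and from 78 to 83.8 in WT colitis. Colon length ran from 8.2 to 11.3 cm in IL-4Rα-/- colitis and from 7.8 to 8.2 cm in WT colitis. Genotype and severity of colitis thus differed together between the colitis arrays and cannot be told apart.

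Hyaluronan is a long, unsulfated sugar chain of the extracellular matrix that HAS enzymes spin out through the plasma membrane. Long chains hold water and are bound by CD44 and by versican, a large chondroitin sulfate proteoglycan, whereas hyaluronidases and CEMIP cut them into shorter pieces. In inflamed gut, the provisional matrix of hyaluronan and versican is known as a surface to which leukocytes adhere, and ADAMTS proteases cut versican within it.

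The values are log2 signals as the authors deposited them. As a guide to background, the 95th percentile of 1210 probe sets of olfactory or vomeronasal receptor genes, used as a stand-in for unexpressed genes, was 3.5 in IL-4Rα-/- colitis, 3.53 in WT colitis and 3.48 in WT normal. A gene with a signal below 4 is called dim here, and a fold against a dim signal is written as at least that fold, because background adds to the dim side. With 1 array a group, the scatter of such dim signals could not be measured. A second property bears on every unchanged gene. Of all genes, 45.8% had exactly the same deposited value on all 3 arrays, and 65.8% had the same value in IL-4Rα-/- colitis and WT normal, against 52.3% in IL-4Rα-/- colitis and WT colitis and 52.3% in WT colitis and WT normal. An exact tie is thus common in these files and does not by itself show that a transcript was unchanged. Every count of genes past 2-fold below stands beside these shares of all genes. For IL-4Rα-/- colitis minus WT colitis, 0.908% were lower and 0.271% higher. For WT colitis minus WT normal, 1.16% were higher and 0.456% lower. For IL-4Rα-/- colitis minus WT normal, 0.186% were higher and 0.336% lower. In a short list, a count of 0 is near these shares and is not read as a lack of change.

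Il4ra, the targeted gene, had 4.76 in IL-4Rα-/- colitis, 6.63 in WT colitis and 5.69 in WT normal. It was lowest on the IL-4Rα-/- array but remained above the background guide, and where its probes lie relative to the deleted part is not known here, so the signal checks the label only in part.

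Among the genes that break hyaluronan down, Cemip stood apart from Hyal2. Cemip encodes a protein that binds hyaluronan and is needed for its depolymerisation in fibroblasts. Its log2 signal was 3.70 in IL-4Rα-/- colitis, 6.65 in WT colitis and 3.57 in WT normal. The WT colitis array alone was high, and the other arrays lay close to the background guide. Cemip lay at least 7.73-fold below WT colitis in IL-4Rα-/- colitis (log2 difference of -2.95), ranking 6 among all 19938 genes in order of decrease. In WT colitis it lay at least 8.46-fold above WT normal (3.08), ranking 8 in order of increase. In IL-4Rα-/- colitis it differed from WT normal by 0.13.

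Hyal2, a membrane-anchored hyaluronidase, had 4.75 in IL-4Rα-/- colitis, 4.85 in WT colitis and 4.75 in WT normal. Its whole range was 0.10, and after quantile normalization it was 0. Hyal1, a lysosomal hyaluronidase, cannot be separated from Naa80, an actin N-acetyltransferase. The dimmer of the probe sets that both genes share had 3.67 in IL-4Rα-/- colitis, 4.22 in WT colitis and 3.83 in WT normal, and the brighter had 4.80, 5.12 and 4.80 on the arrays in that order. Each was highest in WT colitis. The brighter lay 1.25-fold above both other arrays, and the dimmer lay at least 1.46-fold above IL-4Rα-/- colitis and at least 1.31-fold above WT normal. Other genes of hyaluronan breakdown had small differences, but many of them were dim or tied. Of 10 measured, Cemip, which was chosen for its WT colitis signal, was the only 1 past 2-fold in any of the 3 comparisons. Of the 10, 5 were dim on all arrays and 5 were tied on all arrays. A decrease in a dim gene could not be seen, and a tie does not show that a transcript was unchanged. Cemip2, a cell-surface relative of Cemip, had 5.43 in IL-4Rα-/- colitis, 5.63 in WT colitis and 5.63 in WT normal. Hexa and Gusb, exoglycosidases of the lysosome, had WT colitis minus WT normal differences of -0.15 and 0.

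The hyaluronan synthases did not show the pattern of Cemip. Has2, the synthase that mouse embryos require for heart development, had 3.63 in IL-4Rα-/- colitis, 4.00 in WT colitis and 3.75 in WT normal. Its differences were -0.37 for IL-4Rα-/- colitis minus WT colitis and 0.25 for WT colitis minus WT normal, in the direction of Cemip but far smaller and near background. Has1 had 3.20 in IL-4Rα-/- colitis, 3.31 in WT colitis and 3.38 in WT normal, dim on all arrays. Has3, which is not on the list of 10, had 2.40 on each array. Has1, Has2 and Has3 thus had no high signal in WT colitis, and a decrease below such dim levels could not be seen. The 9 measured genes that supply the sugar nucleotides of hyaluronan, including Ugdh, which makes UDP-glucuronic acid (9.96 on each array), held none past 2-fold in any comparison. The largest of their differences was that of Gfpt2, an isoenzyme of the first step to UDP-N-acetylglucosamine, with 4.19 in IL-4Rα-/- colitis, 4.99 in WT colitis and 4.65 in WT normal.

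**Figure D1:**
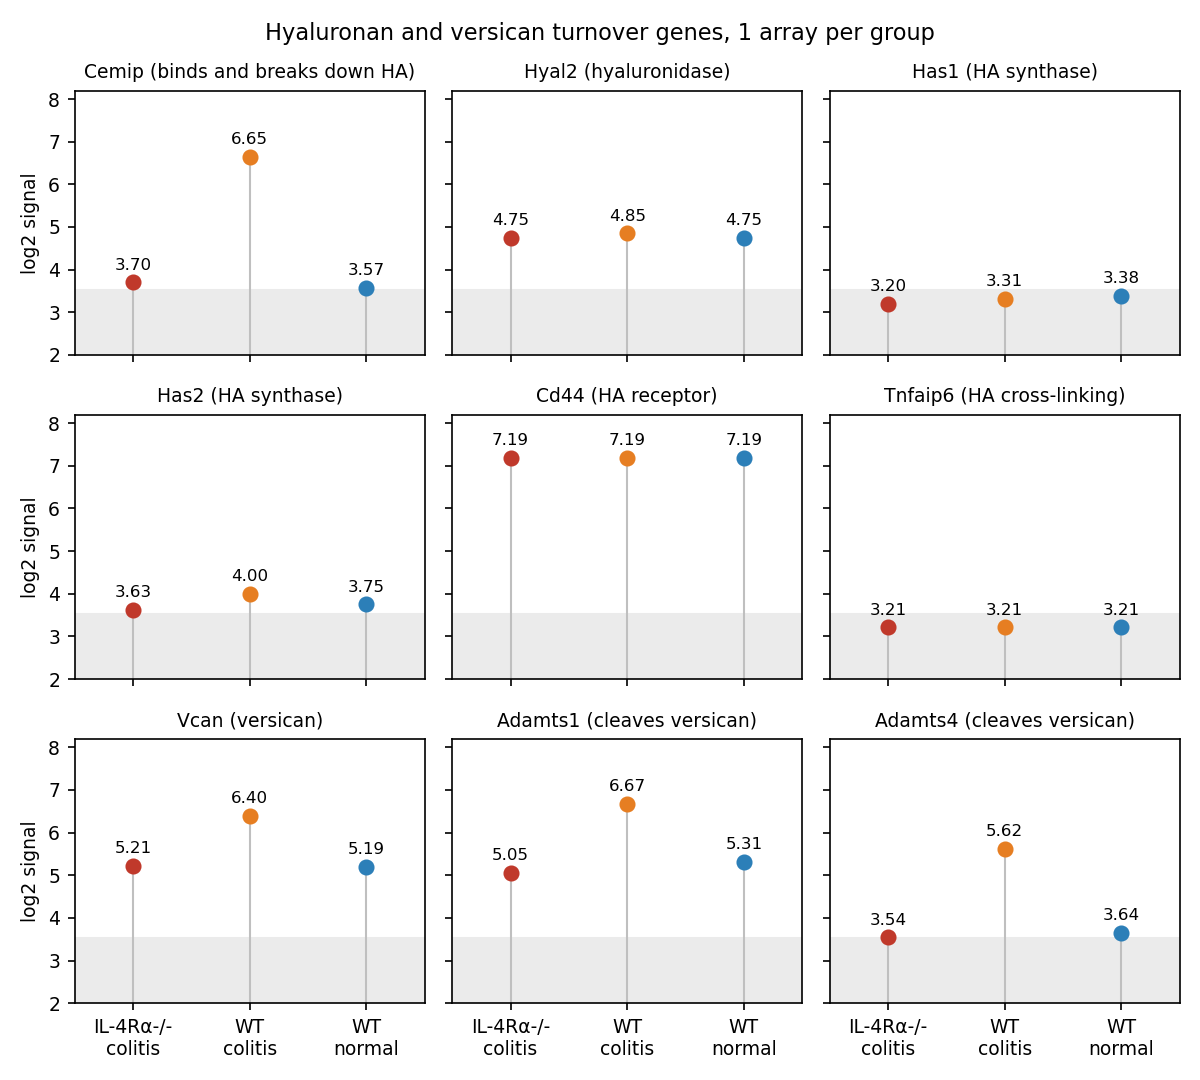
Log2 signal (y axis) of the 9 genes on the IL-4Rα-/- colitis, WT colitis and WT normal arrays (x axis), 1 point per array with no error, and the grey band up to 3.53, the highest of the background guides. Cemip (6.65), Adamts4 (5.62), Adamts1 (6.67) and Vcan (6.40) were highest in WT colitis by more than 2-fold, whereas Cd44 lay at 7.19 on each array.

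Cd44, the main cell-surface receptor for hyaluronan, had a log2 signal of 7.19 on each of the 3 arrays, well above background. It is among the 45.8% of genes with exact ties, and the probe set does not tell its splice forms apart. Tnfaip6, the protein TSG-6 that transfers heavy chains of inter-α-inhibitor onto hyaluronan and so cross-links it, had 3.21 on each array, below the background guide, so no statement about its level is possible. Among the other receptors, layilin (Layn) had 4.27 in IL-4Rα-/- colitis, 4.92 in WT colitis and 4.17 in WT normal. Lyve1, the receptor of lymphatic endothelium, had 6.17, 6.73 and 6.17 on the arrays in that order, and Stab1, a scavenger receptor, had 6.24, 6.71 and 6.24. Tlr2, a toll-like receptor that hyaluronan fragments are reported to engage, was instead highest in IL-4Rα-/- colitis, with 6.02 there, 5.58 in WT colitis and 5.41 in WT normal. Of 8 measured receptors, 0 passed 2-fold in any comparison, a count near the shares over all genes. Of the 10 cross-linking and heavy chain genes, 8 were dim on all arrays and 0 passed 2-fold. Itih3, a heavy chain gene, was dim, with 3.11 in IL-4Rα-/- colitis, 3.94 in WT colitis and 3.11 in WT normal, in the direction of Cemip. Itih5, a heavy chain relative, ran the reverse way, with 6.67 in IL-4Rα-/- colitis, 6.20 in WT colitis and 7.09 in WT normal.

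Versican, Adamts1 and Adamts4 shared the direction of Cemip. Vcan had 5.21 in IL-4Rα-/- colitis, 6.40 in WT colitis and 5.19 in WT normal. It was 2.28-fold below WT colitis in IL-4Rα-/- colitis (-1.19) and 2.31-fold above WT normal in WT colitis (1.21). Its IL-4Rα-/- colitis and WT normal signals differed by 0.02. Of its 8-member family of hyalectans and link proteins, which includes aggrecan (Acan), 6 were dim on all arrays, and Hapln1, a link protein, reached 4.00 in IL-4Rα-/- colitis and 3.87 on the other arrays.

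Adamts4, aggrecanase 1, which cleaves versican and aggrecan, had 3.54 in IL-4Rα-/- colitis, 5.62 in WT colitis and 3.64 in WT normal. The lower arrays lay near the background guide. In IL-4Rα-/- colitis it lay at least 4.23-fold below WT colitis (-2.08, rank 24 in order of decrease), and in WT colitis it lay at least 3.94-fold above WT normal (1.98, rank 39 in order of increase). Adamts1, a relative that also cleaves versican, had 5.05 in IL-4Rα-/- colitis, 6.67 in WT colitis and 5.31 in WT normal. It was 3.07-fold below WT colitis in IL-4Rα-/- colitis (-1.62, rank 53) and 2.57-fold above WT normal in WT colitis (1.36, rank 95). Unlike Cemip and Adamts4, it was above background on each array, so both folds are between measured signals. Adamts1 was the only gene of the 4 below WT normal by more than 0.2 in IL-4Rα-/- colitis, with a difference of -0.26.

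The promoters are shown for the genes that differed most and have an entry in the RefSeq promoter table (build GRCm38.p6, 300 bases a gene), Cemip and Adamts1, and for Tnfaip6 as a gene listed at background. The table held 8 of the 10 genes. Has2 and Adamts4 had no entry. Each line below gives the 250 bases before the transcription start, 5′ to 3′ on the gene's strand. Capitals mark only the motifs named next, where found on either strand. These were the TATA box, searched as TATAAA, the CCAAT box, searched by the letters of its name and shown reversed where it lies on the other strand, and the AP-1 motif, searched as TGANTCA.
Cemip, chr7:84086506-84086755, minus strand: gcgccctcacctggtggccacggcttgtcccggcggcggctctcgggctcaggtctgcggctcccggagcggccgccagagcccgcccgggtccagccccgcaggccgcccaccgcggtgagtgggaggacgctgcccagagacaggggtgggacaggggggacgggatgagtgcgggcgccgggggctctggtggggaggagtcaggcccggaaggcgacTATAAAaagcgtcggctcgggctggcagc
Adamts1, chr16:85803114-85803363, minus strand: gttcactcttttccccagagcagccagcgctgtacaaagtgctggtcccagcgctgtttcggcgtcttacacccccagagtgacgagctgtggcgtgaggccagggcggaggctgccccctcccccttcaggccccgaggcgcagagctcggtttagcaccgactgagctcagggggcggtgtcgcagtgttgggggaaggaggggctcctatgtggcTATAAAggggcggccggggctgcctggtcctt
Tnfaip6, chr2:52037863-52038112, plus strand: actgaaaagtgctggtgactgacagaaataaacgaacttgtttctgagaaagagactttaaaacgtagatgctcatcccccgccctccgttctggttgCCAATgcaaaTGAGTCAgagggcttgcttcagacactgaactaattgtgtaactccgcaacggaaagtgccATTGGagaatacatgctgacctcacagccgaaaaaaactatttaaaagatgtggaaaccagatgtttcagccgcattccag
TATAAA began at position -29 in Cemip and at -32 in Adamts1, counted from the transcription start, and in none of the other 6 entries. These include Vcan, which also passed 2-fold in WT colitis. A link of any motif to the signals was not tested. It was present in 13.6% of all 32851 promoters of the table on either strand. The AP-1 motif was found in Tnfaip6 alone, at -142, and in 7.81% of all promoters. CCAAT was found in Tnfaip6, Has1, Hyal1 and Vcan and in 37.4% of all promoters. The C/EBP motif TTNNGNAA was present in Tnfaip6 and Has1 (40.7% of all), the CRE motif TGACGTCA in Has1 (1.79% of all), the NF-κB motif in Hyal2 (8.46% of all) and the palindromic STAT motif in Cd44 (6.95% of all). In the Tnfaip6 line the C/EBP match, at -108, was left in lower case, and it did not overlap AP-1. A match is a run of letters and not a measured site of binding.

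Counted over the 9 genes, 4 were more than 2-fold below WT colitis in IL-4Rα-/- colitis and 0 were higher, where 0.908% of all genes were lower and 0.271% higher. The 4 were Cemip, Adamts4, Adamts1 and Vcan. The same 4 were more than 2-fold above WT normal in WT colitis and 0 were lower, where 1.16% of all genes were higher and 0.456% lower. Because Cemip and Adamts4 were the reason for the list and both comparisons use the WT colitis array, nothing is read from these shares. In IL-4Rα-/- colitis, 0 of the 9 were more than 2-fold higher or lower than in WT normal, where 0.186% of all genes were higher and 0.336% lower, and the differences ran from -0.26 to 0.13. The median over the 9 genes, Cemip and Adamts4 among them, was -0.37 for IL-4Rα-/- colitis minus WT colitis and 0.25 for WT colitis minus WT normal. The medians over all genes were 0. Because 52.3% of all genes were tied in each of these comparisons, those medians could not be other than 0, and nothing is read from them. With 32 added to each signal on the linear scale, which shrinks every difference and low signals most, 2 genes (Cemip, -1.56, and Adamts1, -1.04) were more than 2-fold below WT colitis in IL-4Rα-/- colitis, where 0.366% of all genes were, and 1 (Cemip, 1.59) was more than 2-fold above WT normal in WT colitis, where 0.406% of all genes were. The genes that no longer passed included Vcan (-0.76 for IL-4Rα-/- colitis minus WT colitis and 0.77 for WT colitis minus WT normal) and Adamts1 (0.90 in the second of these differences), which are above the dim limit on every array. More than 4-fold below WT colitis in IL-4Rα-/- colitis were Cemip and Adamts4, with 0.15% of all genes, and more than 4-fold above WT normal in WT colitis was Cemip alone, with 0.181% of all genes.

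**Figure D2:**
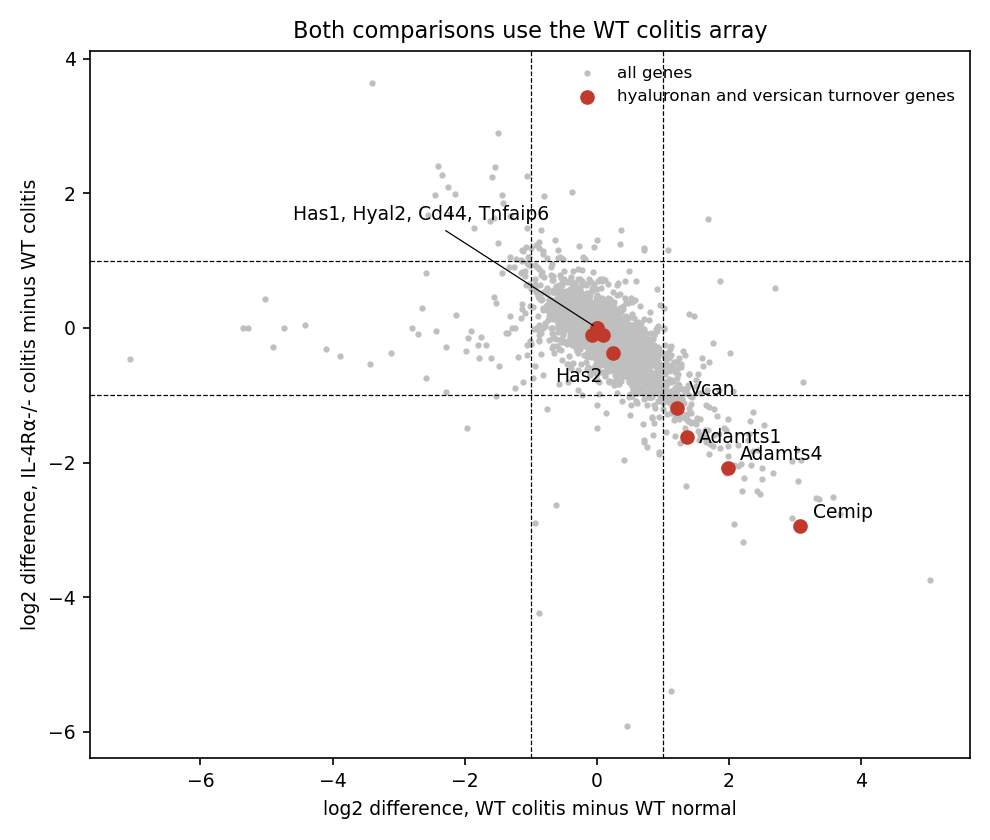
Log2 difference of WT colitis minus WT normal (x axis) and of IL-4Rα-/- colitis minus WT colitis (y axis) for all 19938 genes (grey) and the 9 genes (red), with dashed lines at 1 and -1, the 2-fold limit. Cemip (3.08 and -2.95), Adamts4 (1.98 and -2.08), Adamts1 (1.36 and -1.62) and Vcan (1.21 and -1.19) lie beyond the limit on both axes, which share the WT colitis array, and the other 5 genes lie within 0.37 of 0.

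Around these genes, a wider set of 121 genes of hyaluronan, ADAMTS and proteoglycan metabolism and of cytokines known to induce Has2 or Tnfaip6 was measured. Of these, 6 were more than 2-fold below WT colitis in IL-4Rα-/- colitis and 0 higher, beside 0.908% and 0.271% of all genes. They were Ereg, Ptgs2, Timp1, Tnc, Dcn and Timp3. In WT colitis, 7 lay more than 2-fold above WT normal and 0 below it, namely Timp1, Ereg, Ptgs2, Dcn, Srgn, Il1a and Tnc. Of all genes, 1.16% were higher and 0.456% lower. In IL-4Rα-/- colitis, 0 of the 121 passed 2-fold against WT normal. Of all genes, 0.186% were higher and 0.336% lower, so a count of 0 is near the share over all genes. The lists were chosen with earlier results of these data known, so nothing is read from these counts.

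Among 7 versican-cleaving and related ADAMTS proteases, Adamts1 and Adamts4 passed 2-fold in both comparisons. Adamts9, a versican-cleaving protease, lay exactly at the limit, with 4.67 in IL-4Rα-/- colitis, 5.67 in WT colitis and 4.67 in WT normal. Adamts5, the other main aggrecanase, was dim on all arrays, with 3.31, 3.55 and 3.41 in that order, and Adamts8, Adamts15 and Adamts20 were tied on all arrays, Adamts15 at 4.32. Of 11 further ADAMTS proteases, 0 passed 2-fold, and their differences for IL-4Rα-/- colitis minus WT colitis ran down to -0.47, that of Adamts10. Among the TIMP protease inhibitors, Timp1 passed 2-fold in both comparisons and Timp3 in 1 of them, Timp2 stayed within 2-fold and Timp4 was tied at 3.21. Timp3, which inhibits ADAMTS4 and ADAMTS5, had 7.87 in IL-4Rα-/- colitis, 8.90 in WT colitis and 8.10 in WT normal, 2.04-fold below WT colitis in IL-4Rα-/- colitis and 1.74-fold above WT normal in WT colitis. Timp1 had 3.98 in IL-4Rα-/- colitis, 6.06 in WT colitis and 3.56 in WT normal, so that IL-4Rα-/- colitis and WT normal were both dim.

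Matrix partners of versican included tenascin C (Tnc), with 7.10 in IL-4Rα-/- colitis, 8.47 in WT colitis and 7.30 in WT normal. Fibronectin (Fn1) had 9.40, 10.36 and 9.58 on the same arrays, within 2-fold in each comparison. Decorin (Dcn), a small leucine-rich proteoglycan of fibroblasts, had 9.49 in IL-4Rα-/- colitis, 10.76 in WT colitis and 9.49 in WT normal. Of 18 small leucine-rich and other proteoglycans, Dcn was more than 2-fold below WT colitis in IL-4Rα-/- colitis, and Dcn and serglycin (Srgn), a proteoglycan of leukocyte granules, were more than 2-fold above WT normal in WT colitis. Srgn had 9.21 in IL-4Rα-/- colitis, 10.21 in WT colitis and 8.98 in WT normal. Of the 19 genes that build chondroitin sulfate chains, which versican carries, 0 passed 2-fold, a count near the shares over all genes. Chst15, a sulfotransferase, differed most there, with 5.75 in IL-4Rα-/- colitis, 6.51 in WT colitis and 5.75 in WT normal.

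Of 10 cytokines, growth factors and enzymes known from cultured cells to act upstream of Has2 or Tnfaip6, 2 were more than 2-fold below WT colitis in IL-4Rα-/- colitis, whereas 3 lay more than 2-fold above WT normal in WT colitis. Of all genes, 0.908% were lower in the first of these comparisons and 1.16% higher in the second. Ptgs2, cyclooxygenase 2, had 5.85 in IL-4Rα-/- colitis, 8.20 in WT colitis and 6.85 in WT normal. Ereg, epiregulin, had 5.78, 8.70 and 6.62 on the arrays in that order. Both thus lay below WT normal in IL-4Rα-/- colitis, with differences of -1 for Ptgs2 and -0.84 for Ereg. Those of Cemip and Adamts4 were 0.13 and -0.10. Cemip and Adamts4 were already near the background guide in WT normal, so a decrease like that of Ptgs2 or Ereg could not be seen in them. Il1b had 4.96 in IL-4Rα-/- colitis, 5.71 in WT colitis and 4.96 in WT normal, within 2-fold on these arrays, and Tnf had 4.30, 4.23 and 4.23. By quantitative PCR of colon RNA, the paper reported Il1b as markedly raised in WT colitis and significantly lower in IL-4Rα-/- colitis. Il1a and Il6 were dim on all arrays.

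**Figure D3:**
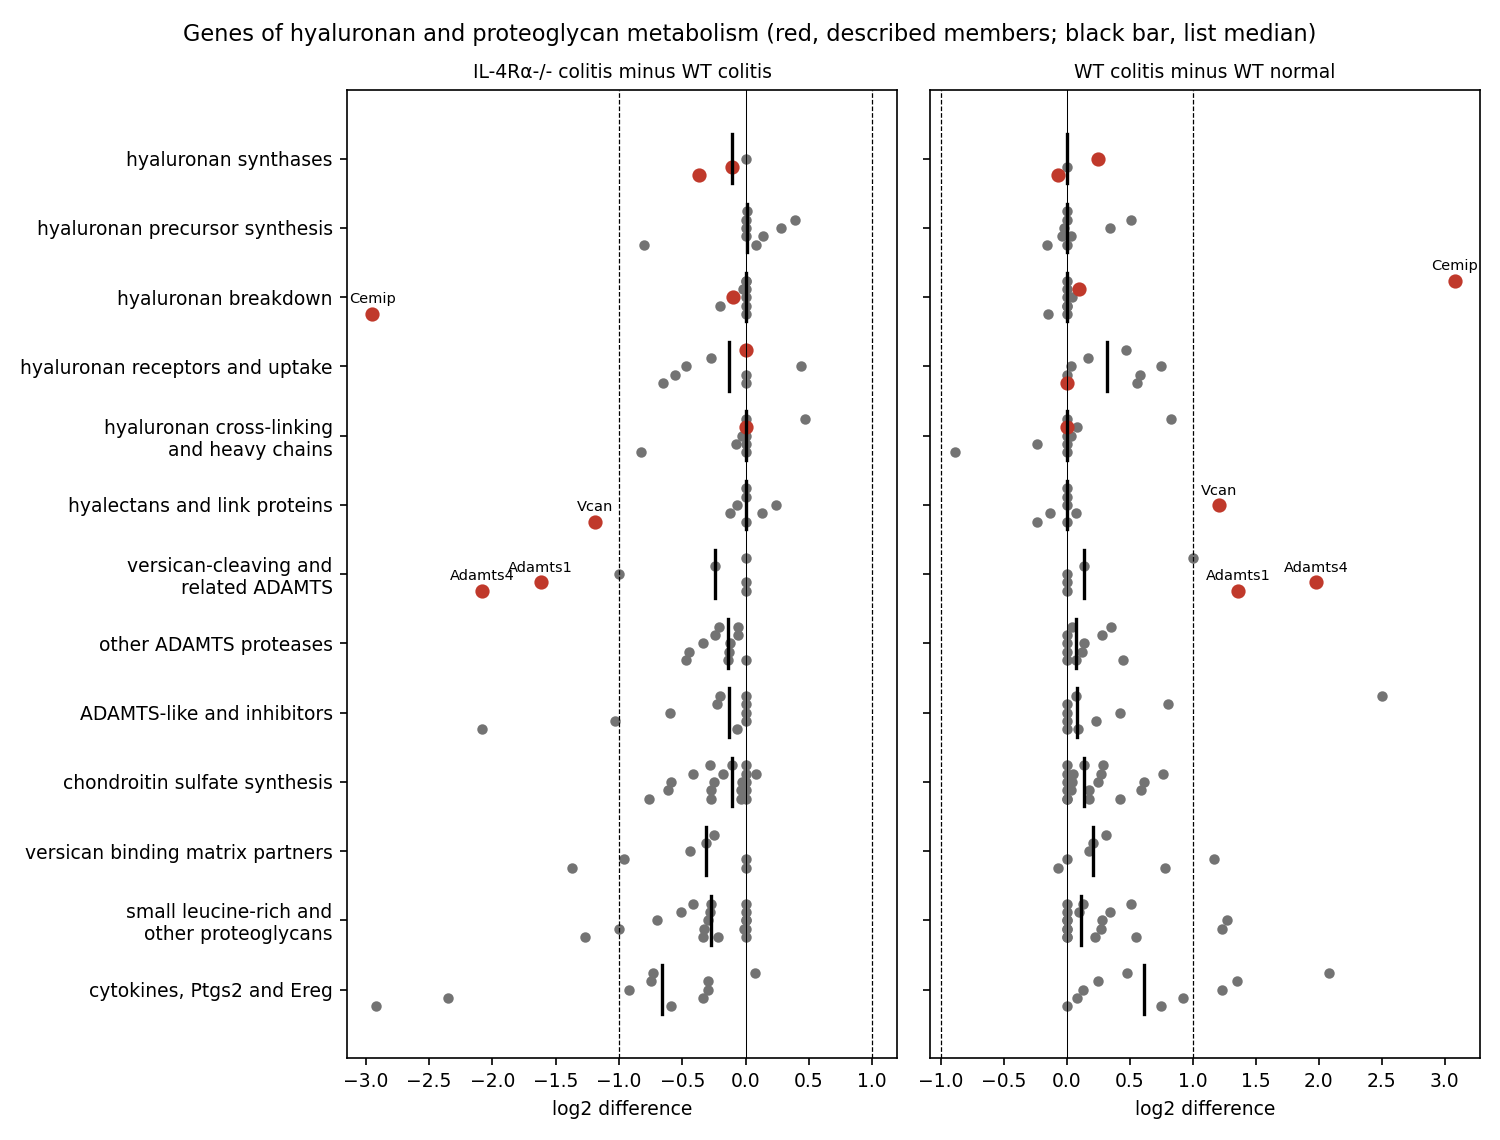
Log2 difference (x axis) of each measured gene in 13 lists (y axis), for IL-4Rα-/- colitis minus WT colitis on the left and WT colitis minus WT normal on the right, with the described genes in red, a black bar at each list's median and dashed lines at 1 and -1. Cemip (-2.95 and 3.08) lies far from the rest of hyaluronan breakdown, and the synthases lie within 0.37 of 0. Of the 10 breakdown genes, 5 were dim on all arrays.

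Genes whose pair of differences lay nearest to that of Cemip, by Euclidean distance over IL-4Rα-/- colitis minus WT colitis and WT colitis minus WT normal on the 3 arrays, were Mmp10 (distance 0.18), Cpa3 (0.48), Igfbp5 (0.50), Saa3 (0.63) and Serpina3n (0.67). Mmp10, the matrix metalloproteinase stromelysin 2, had 4.75 in IL-4Rα-/- colitis, 7.57 in WT colitis and 4.62 in WT normal. It differed from WT normal in IL-4Rα-/- colitis by 0.13, as Cemip did. The other 4 remained further above WT normal in IL-4Rα-/- colitis, by 0.79 for Cpa3, a mast cell carboxypeptidase that is also in the mast cell list below, to 1.07 for Serpina3n, an acute-phase protease inhibitor. Nearest to Adamts4 were Bmp7 (0.06), Spon2 (0.08), Krt5 (0.11), Chil1 (0.15) and Sod3 (0.17). Bmp7, a bone morphogenetic protein, had 4.85 in IL-4Rα-/- colitis, 6.91 in WT colitis and 4.99 in WT normal, and Sod3, the extracellular superoxide dismutase, had 5.14, 7.05 and 5.07 in that order.

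Markers of several cell types moved on the same arrays, and with pooled tissue fewer cells of a type and less RNA per cell cannot be told apart. Of 8 fibroblast markers, 3 (Pdgfra, Dcn and Pdpn) lay more than 2-fold below WT colitis in IL-4Rα-/- colitis and 0 above it. Of all genes, 0.908% were lower and 0.271% higher. The median of the 8 was -0.73. The same 3 were more than 2-fold above WT normal in WT colitis, beside 1.16% of all genes. Dcn is also in the proteoglycan list. The log2 of the summed linear signal over the 8 was 10.41 in IL-4Rα-/- colitis, 11.45 in WT colitis and 10.46 in WT normal. Pdgfra, the receptor that marks fibroblasts of the lamina propria, had 6.48 in IL-4Rα-/- colitis, 7.51 in WT colitis and 6.45 in WT normal, and Lum was tied at 5.47. The differences of Vcan (-1.19 and 1.21) lay within the range of the fibroblast markers. Those of Adamts1 were larger than that of any fibroblast marker in either comparison. So were those of Cemip and Adamts4, which were chosen for their high WT colitis signal. Nothing is read from this order of size. The part of fibroblast content in these values was not tested.

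Of 8 mast cell markers, 4 were more than 2-fold below WT colitis in IL-4Rα-/- colitis and 4 more than 2-fold above WT normal in WT colitis, beside 0.908% and 1.16% of all genes. Their summed signals were 8.73 in IL-4Rα-/- colitis, 10.21 in WT colitis and 8.18 in WT normal on the log2 scale. Of these 4, Cpa3 was dim in WT normal (3.50) and Fcer1a in IL-4Rα-/- colitis (3.03) and WT normal (2.90). Mcpt1 and Mcpt2 were still more than 2-fold above WT normal in IL-4Rα-/- colitis (1.21 and 1.12), beside 0.186% of all genes. Endothelial markers had medians of -0.69 for IL-4Rα-/- colitis minus WT colitis and 0.69 for WT colitis minus WT normal, with 1 of 6 (Cdh5) past 2-fold in each. Their summed signals were 7.91 in IL-4Rα-/- colitis, 8.62 in WT colitis and 7.93 in WT normal. Neutrophil markers were mostly dim, 6 of 8 on all arrays, with S100a8 past 2-fold in both comparisons, Mpo tied at 2.32 and summed signals of 5.80, 6.50 and 5.78. Their medians were -0.465 and 0.555 in the same order of comparisons. Macrophage and monocyte markers had medians of -0.19 and 0.28, with Cd163 past 2-fold and summed signals of 9.94, 10.44 and 9.98. Of 6 squamous epithelium markers, Krt5 alone was past 2-fold, with 3.14 in IL-4Rα-/- colitis, 5.17 in WT colitis and 3.09 in WT normal, and 4 were dim on all arrays. The medians of the 6 were -0.41 and 0.41. Of 5 B and plasma cell markers, Ms4a1 alone passed 2-fold, in WT colitis against WT normal (1.12). The medians of the 5 were -0.54 for IL-4Rα-/- colitis minus WT colitis and 0.77 for WT colitis minus WT normal. In the T cell, mesothelium, adipocyte and enteric neuron lists 0 markers passed 2-fold in either comparison. Epithelial and smooth muscle markers, which define the labelled tissue, were bright on each array, and 0 of 7 and 0 of 6 passed 2-fold in either comparison. Which of these cells carried the change in the matrix genes was not tested.

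The WT normal array differed from both colitis arrays in transcripts of the exocrine pancreas. All 6 measured acinar markers were more than 2-fold below WT normal in WT colitis and also in IL-4Rα-/- colitis, beside 0.456% and 0.336% of all genes. The summed signal of these markers was 6.63 in IL-4Rα-/- colitis, 6.33 in WT colitis and 11.17 in WT normal on the log2 scale. Their part in the values against WT normal was not tested. The comparison of IL-4Rα-/- colitis with WT colitis does not use that array.

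**Figure D4:**
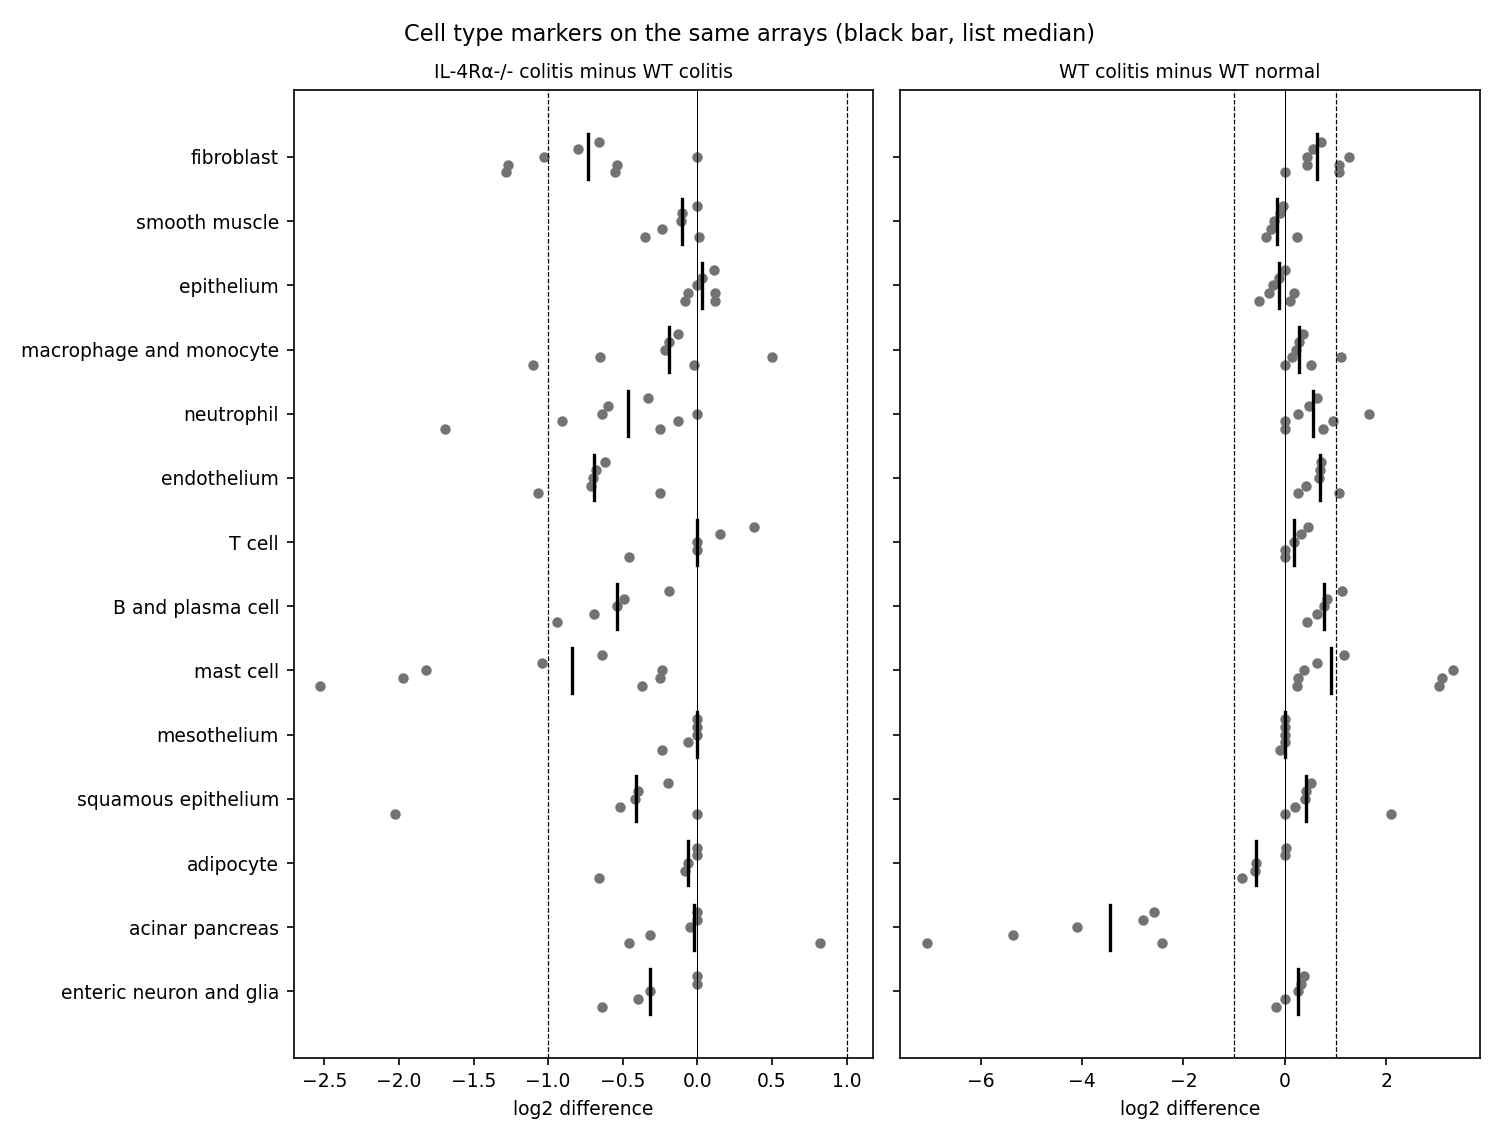
Log2 difference (x axis) of each measured marker in 14 cell type lists (y axis), for IL-4Rα-/- colitis minus WT colitis on the left and WT colitis minus WT normal on the right, with a black bar at each median and dashed lines at 1 and -1. On the left, the lowest medians are those of mast cell (-0.84), fibroblast (-0.73), endothelial (-0.69) and B and plasma cell (-0.54) markers. Epithelial markers (0.03) lie around 0 there, and acinar markers have a median of -3.45 on the right.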

How the data were processed

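RNA of the distal colon was pooled by group and hybridised once per group, to 3 arrays in all. The table deposited by the authors gives log2 signals, to 2 decimals, of 28944 probe sets. The methods name GeneChip Analysis Suite for the expression values and Transcriptome Analysis Console among later tools. The summary and normalization steps and the versions are not given in the sources used here. The labels name a Cy3 kit of another maker, while the probe set numbers are those of the GeneChip.

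Symbols came from the platform annotation. A single symbol stood beside 21789 probe sets, of which 21698 took the current RefSeq symbol by gene number, and 1621 with several symbols named no gene. The probe set with the highest mean over the 3 arrays stood for a gene. Log2 differences were taken between deposited values, and a gene was counted past 2-fold where the difference passed 1 in size. No significance test was run, because 1 array per group gives no replicate and limits the precision. The members and lists were chosen with earlier results of these data known. The named genes were the members, Il4ra, up to 4 genes per list past 2-fold and the 5 nearest to Cemip and to Adamts4, and further genes of the lists were named after their values were seen. The promoter motifs were also set after the values were seen. Alternatives were quantile normalization, median centring, an offset of 32, the mean of probe sets, a filter on dim genes and a 4-fold limit. The counting step was tested on simulated data. The work used Python 3.11.15, numpy 2.4.6, pandas 2.3.3 and matplotlib 3.10.9.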

Additional observations from a re-analysis of the deposited data

How the results depend on the processing

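Quantile normalization, median centring and averaging the probe sets of a gene changed none of the 6 counts of genes past 2-fold and moved no difference of Cemip or Adamts4 by more than 0.1, and leaving out dim genes changed none of the 6 counts. An offset of 32 on the linear scale changed both counts that were above 0. Genes more than 2-fold below WT colitis in IL-4Rα-/- colitis then numbered 2, and those more than 2-fold above WT normal in WT colitis numbered 1. With this offset the differences of IL-4Rα-/- colitis minus WT colitis were -1.56 for Cemip and -0.90 for Adamts4, and those of WT colitis minus WT normal were 1.59 and 0.87. By construction the offset shrinks every difference, low signals most. Vcan (-0.76 and 0.77) and, for WT colitis minus WT normal, Adamts1 (0.90) also fell short of 2-fold, although neither is dim on any array. With a 4-fold limit the counts were 2 and 1 in the same comparisons. Adamts1 (-1.62 and 1.36) and Vcan (-1.19 and 1.21) fell short of it in both, and Adamts4 (1.98) stopped just short of it for WT colitis minus WT normal. No paired analysis was possible because each group had 1 array. Has1, Has3 and Tnfaip6 were dim on all arrays, and Cemip and Adamts4 were near background in IL-4Rα-/- colitis and WT normal, so their folds are limited by background.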
